A study of Mus musculus with 12 samples.

Results

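Livers of mice lacking HDAC6 and livers of mice lacking HDAC9 were pooled and compared with livers of wild-type mice on regular chow, to describe the transcripts that differed in both deletions. The comparison used 9 of the 12 arrays of the series. One side held 6 knockout arrays, 3 from HDAC6-/- and 3 from HDAC9-/- mice, and the other held 3 arrays of wild-type mice on chow with 25% of its energy from fat. The remaining 3 arrays, from wild-type mice on a high-fat diet with 60% of energy from fat, entered the estimate of the spread and served as a second reference. All mice were female C57BL/6 of 8 to 12 weeks, and RNA came from whole liver. The labels gave no diet for either knockout, so genotype and diet cannot be told apart in any difference from chow. They also did not state whether the knockout and wild-type mice were littermates, or whether each replicate was a separate mouse, and p-values reflect only how far these samples spread.

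HDAC6 and HDAC9 are both class II histone deacetylases and act in different places. HDAC6 is mainly cytoplasmic and removes acetyl groups from tubulin, cortactin and the chaperone HSP90. HDAC9 is a class IIa enzyme that shuttles between cytoplasm and nucleus, has weak catalytic activity of its own and binds MEF2 transcription factors. In hepatocytes, class IIa deacetylases are known to act on gluconeogenic genes through FOXO factors.

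Expression was read on a log2 scale for 12393 genes, 1 probe set for each, and a difference of 1 on this scale is 2-fold. Array medians lay between 5.78 and 5.86, and pairs of arrays correlated at 0.987 to 0.997 across probe sets. The median standard error (SE) of the pooled difference was 0.107, against 0.124 for either knockout alone. Albumin (Alb) read 14.16 to 14.25 on the 12 arrays, and the median level over 22 genes without known liver expression was 3.64, taken here as background. Xist, transcribed from the inactive X, read 11.54 to 12.05 and the Y-linked Eif2s3y 2.35 to 2.75 on the 12 arrays. One array stood apart: HDAC9 knockout replicate 2 carried transcripts of the exocrine pancreas, with a median over 11 such genes of 3.75 above their 12-array means, against -0.64 to 0.21 on the other 5 knockout arrays. Values without that array are given for the shared calls, Orm2, Slc41a2 and several gene lists.

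Hdac6 transcript was low only in the HDAC6 knockout arrays. Its level was 6.17, 6.16 and 6.51 on the HDAC6 knockout arrays, 7.96, 7.95 and 8.03 on the HDAC9 knockout arrays and 7.89, 7.98 and 7.86 in the chow livers, in replicate order as in all such lists here. The 3 HDAC6 knockout arrays thus lay below all others, while the HDAC9 knockout arrays overlapped chow. Hdac6 fell in the pooled comparison (log2 difference -0.78, SE 0.115, adjusted p = 0.0400) through one deletion alone, with -1.63 in the HDAC6 knockout and 0.07 in the HDAC9 knockout. It is therefore not a shared change. Hdac9 read 4.06, 4.30 and 4.53 on the HDAC6 knockout arrays, 4.04, 4.17 and 4.40 on the HDAC9 knockout arrays and 4.39, 4.33 and 4.18 in the chow livers. These levels overlap and lie near background, so the Hdac9 probe set could not check the HDAC9 label.

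Few single genes passed the test. A gene was called at an adjusted p under 0.05 (limma, Benjamini-Hochberg over all 12393 genes, two-sided), and a change counted as shared when the gene was called and all 6 knockout arrays lay on the same side of all 3 chow arrays. Rab38 and Rgs1 rose and Mpp4 fell by this rule. With Hdac6, 4 genes were called (0.0323% of those tested), 2 higher (0.0161%) and 2 lower (0.0161%), and 835 genes (6.74%) had an unadjusted p under 0.05. All 6 knockout arrays lay above all 3 chow arrays for 162 genes (1.31%) and below them for 200 genes (1.61%). The median difference over all genes was -0.01, with 45.2% of genes above 0. The calls lay close to the threshold. The number called was 0 without HDAC6 knockout replicate 2, HDAC9 knockout replicate 2 or HDAC9 knockout replicate 3, and 1 without HDAC6 knockout replicate 3 or any single chow array. It was 8 without HDAC6 knockout replicate 1 and 7 without HDAC9 knockout replicate 1. Quantile normalization or median centring of the arrays also left 0 genes called (limma, 911 and 876 genes at an unadjusted p under 0.05). So did a fit of the 6 knockout arrays as 1 group, where the smallest adjusted p was 0.212, and a fit of the 9 knockout and chow arrays alone, where it was 0.0579 (limma, 811 and 783 genes at an unadjusted p under 0.05).

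Rab38 (on chromosome 7), a small GTPase that takes part in the biogenesis of melanosomes and related organelles, rose 1.56-fold with both deletions. Its level was 6.46, 6.32 and 6.58 on the HDAC6 knockout arrays and 6.15, 6.11 and 6.27 on the HDAC9 knockout arrays, against 5.73, 5.59 and 5.69 on the chow arrays. Every knockout array lay above every chow array, and the HDAC6 knockout arrays lay above the HDAC9 knockout arrays. The pooled mean was 6.31 ± 0.179 (SD, n = 6) against 5.67 ± 0.0736 (n = 3), a log2 difference of 0.64 (SE 0.0978, adjusted p = 0.0400). The value was 0.78 for the HDAC6 knockout and 0.50 for the HDAC9 knockout, and their difference of -0.27 did not pass (95% interval -0.52 to -0.03, adjusted p = 1.00). High-fat wild-type livers read 5.61, 5.59 and 5.85, close to chow. Rab38 no longer passed when any of 8 of the 9 arrays was left out (adjusted p up to 0.184), HDAC6 knockout replicate 1 being the exception, while its log2 difference stayed between 0.60 and 0.67.

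Dct, a melanin synthesis enzyme, was another member of the melanosome list that was higher on all knockout arrays, although it did not pass the test. It read 9.39, 9.41 and 9.23 on the HDAC6 knockout arrays, 8.79, 8.95 and 8.85 on the HDAC9 knockout arrays and 7.81, 8.46 and 8.59 in the chow livers (log2 difference 0.82, SE 0.150, adjusted p = 0.0824). All 6 knockout arrays lay above chow, with chow replicate 1 the lowest by a wide margin, and without it the difference was 0.58. Of 13 measured genes of melanosome and Rab transport, 2 had all knockout arrays above chow (Rab38 and Dct) and 1 had them below (Rab7, -0.16). Over all genes these shares were 1.31% and 1.61%. A second Rab7 probe set gave 0.07 with overlapping arrays. The list's median difference was 0.06.

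Rgs1 (on chromosome 1), which dampens G-protein signalling in leukocytes, rose 1.68-fold. It read 5.17, 5.07 and 5.31 on the HDAC6 knockout arrays, 5.77, 5.88 and 5.64 on the HDAC9 knockout arrays and 4.76, 4.60 and 4.82 in the chow livers. The 3 groups did not overlap, chow being the lowest and the HDAC9 knockout the highest. The pooled mean was 5.47 ± 0.334 (SD, n = 6) against 4.73 ± 0.116 (n = 3), a log2 difference of 0.75 (SE 0.115, adjusted p = 0.0400). The HDAC9 knockout exceeded the HDAC6 knockout by 0.58 (95% interval 0.29 to 0.86), which did not pass over all genes (adjusted p = 0.626). Leaving out any of 8 arrays ended the call of Rgs1 (adjusted p up to 0.184), with HDAC6 knockout replicate 1 again the exception.

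Mpp4 (on chromosome 1), a scaffold protein known from photoreceptors, fell 1.61-fold from a level that was already low. It read 3.54, 3.54 and 3.33 on the HDAC6 knockout arrays, 3.34, 3.50 and 3.63 on the HDAC9 knockout arrays and 3.93, 4.30 and 4.27 in the chow livers. The knockout values sit at the background median of 3.64, which limits the size given. The log2 difference was -0.69 (SE 0.101, adjusted p = 0.0400), and leaving out any of 6 arrays ended the call (adjusted p up to 0.118). It was -0.70 and -0.67 for the HDAC6 and HDAC9 knockout.

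**Figure D1:**
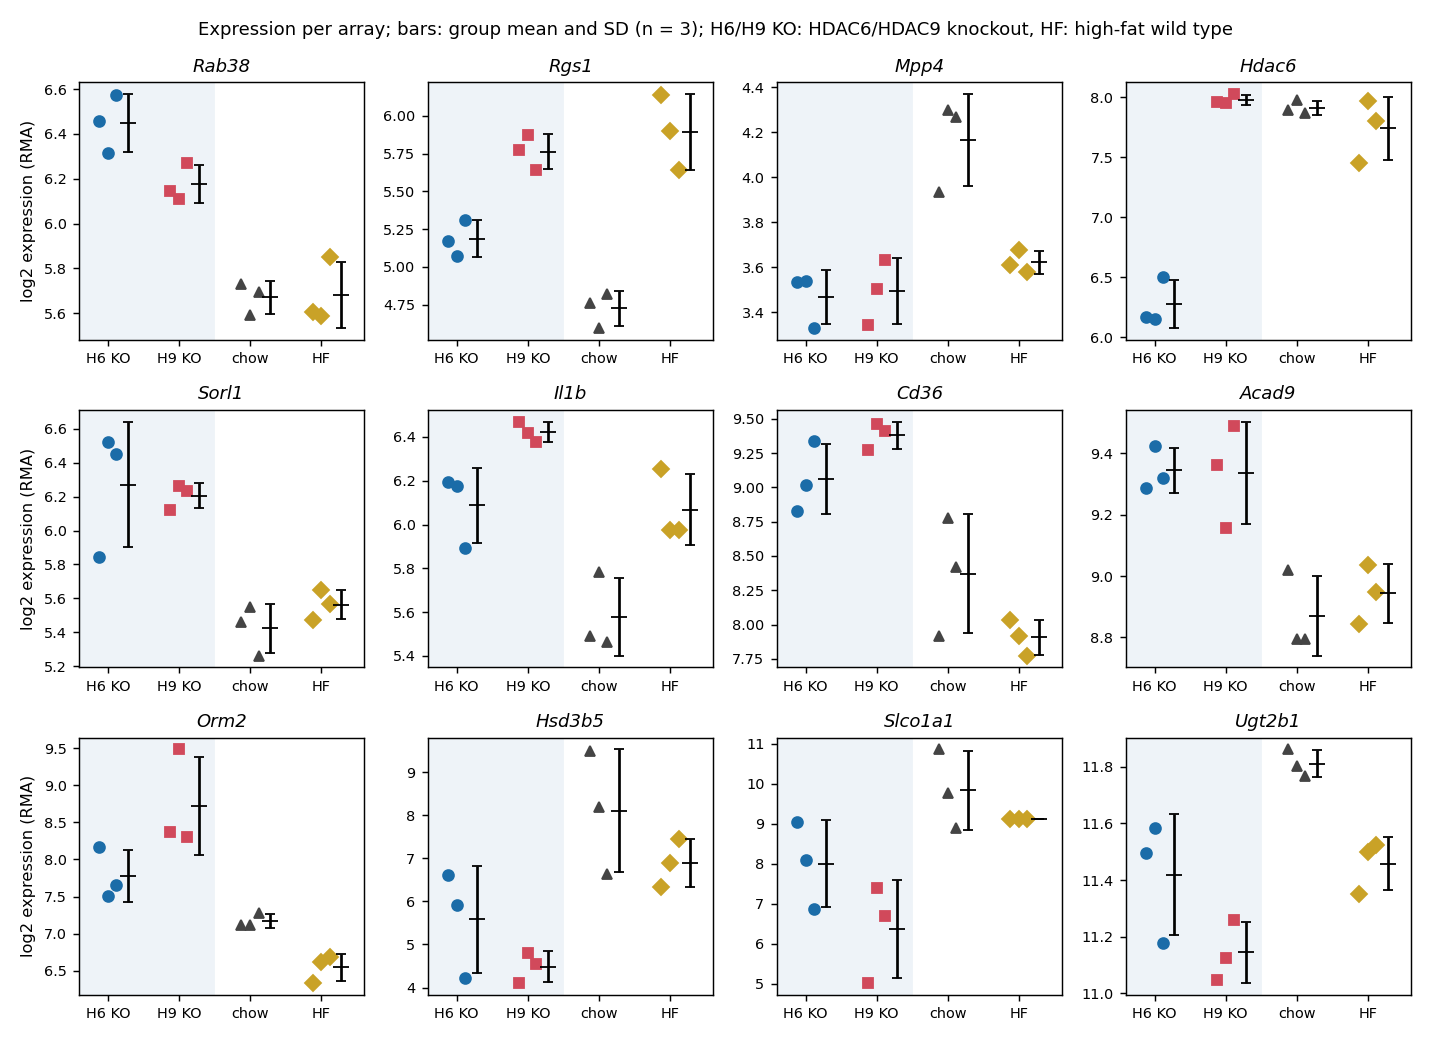
Log2 expression of 12 genes (y axis, RMA values) on every array, by group (x axis); points are arrays, and the bar beside each group is its mean and SD over 3 arrays. Shading marks the knockout groups. Rab38 lies higher in both knockouts than in either wild-type group, Rgs1 and Mpp4 in high-fat wild-type livers lie on the knockout side, and Hdac6 is low in the HDAC6 knockout only.

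The high-fat wild-type arrays separated the shared changes into those that stood apart from both wild-type groups and those that did not. Against the high-fat group, Rab38 was again higher by 0.63 (SE 0.0978, adjusted p = 0.00850). Rgs1 was instead lower by 0.42 than in high-fat livers (SE 0.115, adjusted p = 0.169), where it had itself risen against chow by 1.17 (SE 0.133, adjusted p = 0.00137). High-fat arrays of Mpp4 read 3.61, 3.68 and 3.58, at the upper end of the knockout arrays (3.33 to 3.63), and its knockout minus high-fat difference was -0.14 (adjusted p = 0.788). With the mean of both wild-type groups as the reference, a choice made after seeing the data, 26 genes were called, 13 in each direction. Rab38 (0.64, adjusted p = 0.00381), Cd36 (1.08), Orm2 (1.39) and Sorl1 (0.74, adjusted p = 0.0106) were among those higher. Among those lower were Hsd3b3 (-0.50), Slc22a7 (-0.88), Hsd3b5 (-2.46) and Slco1a1 (-2.29). Cyp2b10 (1.91) and Jun (-1.01) were also called, although their differences from chow were 0.07 and 0.28, beside 3.75 and -2.30 from high-fat livers.

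For 21 genes (0.169%) all 6 knockout arrays lay above all 6 wild-type arrays, and for 33 genes (0.266%) below them. The widest gaps on the higher side belonged to Slc41a2, a magnesium transporter, Rab38, the acute phase protein Orm2 and the sorting receptor Sorl1. On the lower side they belonged to Hao1, the peroxisomal glycolate oxidase, and Cyp39a1, an oxysterol hydroxylase of bile acid synthesis. These genes were picked after their values were seen.

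Sorl1, a receptor that sorts cargo between Golgi and endosomes, came next to the called genes. It read 5.85, 6.52 and 6.45 on the HDAC6 knockout arrays, 6.12, 6.26 and 6.23 on the HDAC9 knockout arrays and 5.46, 5.55 and 5.26 in the chow livers. HDAC6 knockout replicate 1 was the lowest knockout array and still lay above chow. The log2 difference of 0.82 (SE 0.134) had an adjusted p of 0.0536, and without HDAC6 knockout replicate 1 the adjusted p was 0.00328. A second Sorl1 probe set, at a background level of 3.22, had a difference of -0.07.

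Rasgrp2 and Arrdc4 were also higher on all 6 knockout arrays without passing the test. Rasgrp2, an exchange factor for the GTPase Rap1, read 6.76 to 7.08 on the knockout arrays and 6.04, 6.50 and 6.32 on chow (0.66, SE 0.111, adjusted p = 0.0561). High-fat livers read 6.93, 6.85 and 6.84 and lay with the knockouts. Arrdc4, an arrestin-domain adaptor, read 7.0 to 7.47 against 6.66, 6.62 and 6.57 (0.60, SE 0.118, adjusted p = 0.129). Other probe sets gave smaller differences, 0.39 and 0.18 for Rasgrp2 and 0.11 for Arrdc4.

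**Figure D2:**
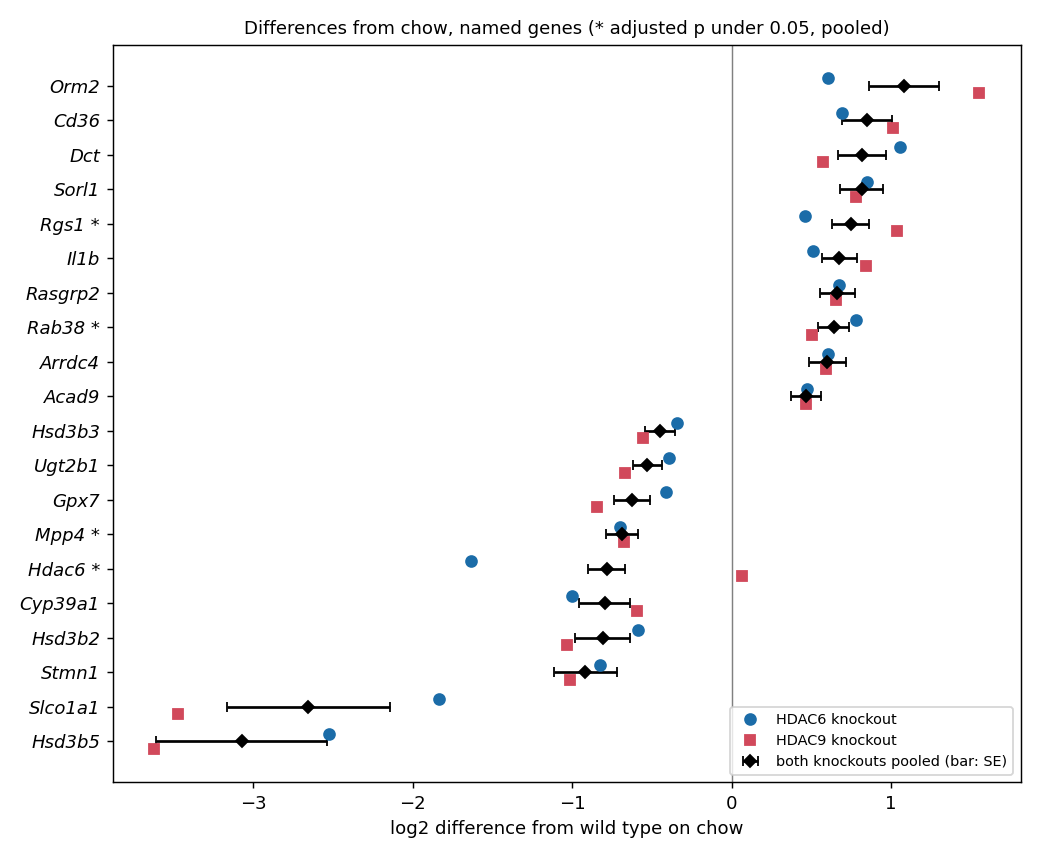
Log2 difference from the chow mean (x axis) for 20 named genes (y axis), in the HDAC6 knockout (circles), the HDAC9 knockout (squares) and both pooled (diamonds, bar 1 SE). Asterisks mark genes past the threshold in the pooled comparison. The 2 knockouts lie on the same side of 0 for every gene shown except Hdac6. Apart from Hdac6, the genes were picked by smallest pooled p, and both knockouts are set against the same chow arrays. A shared side was therefore largely fixed in advance and is not a result. Hsd3b5 and Slco1a1 have the largest differences, neither past the threshold.

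The largest differences belonged to Hsd3b5 and Slco1a1, which male mouse liver normally expresses more than female liver. Hsd3b5, a ketosteroid reductase, Slco1a1, an uptake transporter for bile acids and other organic anions, and Ugt2b1, a glucuronosyltransferase, all had lower means with both deletions. None of them passed the test. The 250 bases before the start sites of Hsd3b5 and Hsd3b3 are given with the longest run that they share, 24 bases, in capitals. They were the most alike of the Hsd3b pairs aligned. The third sequence, of Slco1a1, has a match to the MEF2 motif in capitals, shown because HDAC9 binds MEF2 factors. All are from RefSeq on GRCm38.p6, minus strand, written 5′ to 3′, at chr3:98645535-98645784, chr3:98763129-98763378 and chr6:141946963-141947212.
Hsd3b5: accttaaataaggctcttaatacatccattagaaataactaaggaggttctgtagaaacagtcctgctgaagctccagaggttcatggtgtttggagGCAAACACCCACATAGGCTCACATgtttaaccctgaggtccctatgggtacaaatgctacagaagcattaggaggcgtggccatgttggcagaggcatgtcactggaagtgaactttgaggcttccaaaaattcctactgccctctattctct
Hsd3b3: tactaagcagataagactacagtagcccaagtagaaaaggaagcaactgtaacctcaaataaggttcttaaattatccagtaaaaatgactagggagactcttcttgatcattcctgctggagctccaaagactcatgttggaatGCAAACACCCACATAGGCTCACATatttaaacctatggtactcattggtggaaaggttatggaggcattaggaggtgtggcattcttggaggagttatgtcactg
Slco1a1: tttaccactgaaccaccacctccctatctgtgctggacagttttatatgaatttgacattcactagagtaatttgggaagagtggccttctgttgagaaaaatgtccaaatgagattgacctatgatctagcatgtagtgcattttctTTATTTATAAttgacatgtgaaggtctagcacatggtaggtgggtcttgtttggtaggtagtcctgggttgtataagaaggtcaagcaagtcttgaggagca
The shared run began at position -153 relative to the start site in Hsd3b5 and at -105 in Hsd3b3, and 156 of 199 aligned bases (78.4%) were identical. Hsd3b2 lies in the same cluster on chromosome 3 and shared 54.0% of aligned bases with Hsd3b5 and 57.5% with Hsd3b3. Gaps were left out of these shares, and no unrelated windows were aligned as a baseline. The MEF2 motif began at position -102 of Slco1a1, and 2.92% of 32851 windows of this length hold a match on either strand. The windows of Hsd3b5, Hsd3b2, Hsd3b3 and Ugt2b1 had 0 matches to it. The STAT5 motif TTCNNNGAA, present in 7.02% of windows, had 0 matches in the windows of Hsd3b5, Hsd3b2, Hsd3b3, Slco1a1 and Ugt2b1. Of the 21 genes named by rule, 16 had a window in the table. Such matches describe letters only.

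Hsd3b5 read 6.62, 5.93 and 4.21 on the HDAC6 knockout arrays, 4.10, 4.80 and 4.56 on the HDAC9 knockout arrays and 9.49, 8.20 and 6.63 in the chow livers. The groups were next to each other without overlapping, since the lowest chow array (6.63) and the highest knockout array (6.62) were nearly equal. The pooled mean was 5.03 ± 1.01 (SD, n = 6) against 8.11 ± 1.43 (n = 3), an 8.41-fold difference (log2 difference -3.07, SE 0.536, adjusted p = 0.0648). Without chow replicate 3 it was -3.81 and passed (adjusted p = 0.0338), and it passed without HDAC6 knockout replicate 1 (adjusted p = 0.0498). Without chow replicate 1 it was -2.38. High-fat livers lay between, at 6.34, 6.88 and 7.46.

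Slco1a1 spread as widely. It read 9.04, 8.09 and 6.88 on the HDAC6 knockout arrays, 5.01, 7.39 and 6.70 on the HDAC9 knockout arrays and 10.86, 9.77 and 8.88 in the chow livers. HDAC6 knockout replicate 1 lay above chow replicate 3, so the groups overlapped. The log2 difference was -2.65 (SE 0.510, adjusted p = 0.120), with -1.84 in the HDAC6 knockout and -3.47 in the HDAC9 knockout, and a second probe set gave -2.55 with no overlap.

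Ugt2b1 had close chow values, 11.86, 11.80 and 11.77, against 11.50, 11.58 and 11.18 on the HDAC6 knockout arrays and 11.05, 11.13 and 11.26 on the HDAC9 knockout arrays. All knockout arrays lay below chow (log2 difference -0.53, SE 0.0903, adjusted p = 0.0594). Hsd3b2 and Hsd3b3, steroid dehydrogenases beside Hsd3b5, had differences of -0.81 (SE 0.173, adjusted p = 0.193) and -0.45 (SE 0.0918, adjusted p = 0.146), and again every knockout array lay below chow. The Hsd3b3 probe set is of a kind whose probes match more than 1 transcript, so its signal may hold that of its relatives. Hsd3b1, near background, had -0.33 and the bile acid enzyme Hsd3b7, on chromosome 7, had -0.06, both with overlapping arrays.

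Of 20 measured male-biased genes, 17 had lower pooled means and 3 higher. All 6 knockout arrays lay below chow for 3 (Hsd3b5, Ugt2b1 and Hsd3b2), beside 1.61% of all genes. The list's median difference was -0.29, with -0.28 and -0.30 in the HDAC6 and HDAC9 knockout, beside -0.01 over all genes. No member was called (limma), and 8 had an unadjusted p under 0.05 on the lower side, where all genes gave 3.84%. Relative to the mean of the 12 arrays, the list's median was 0.52, 0.19 and 0.13 on the chow arrays, 0.04, -0.02 and -0.29 on the HDAC6 knockout arrays and -0.23, 0.07 and -0.16 on the HDAC9 knockout arrays. All 3 chow arrays were thus highest, chow replicate 1 by far, and without it the list's difference was -0.18. High-fat wild-type arrays had -0.041, -0.0096 and -0.0012, within the range of the knockout arrays. Cyp4a12a, a P450 of male liver, read 2.67 to 2.97 on all 12 arrays. Female-biased genes had higher means in 21 of 28 (median 0.20), among them Cyp3a44 (1.31, SE 0.378, adjusted p = 0.445). Without chow replicate 1 the difference of Cyp3a44 was 0.71 and the list's median 0.04, and without HDAC9 knockout replicate 1 that median was 0.082. Growth hormone and STAT5 genes had lower means in 14 of 17 (median -0.11, and -0.067 without chow replicate 1), with the feedback inhibitor Socs2 at -0.79 (SE 0.287) and the growth factor binding protein Igfbp1 at 0.89 (SE 0.243), neither of which passed.

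Bile acid genes had lower means in 22 of 29 (median -0.10), and 4 of them had all knockout arrays below chow, beside 1.61% of all genes. The list's median was -0.01 in the HDAC6 knockout, where all genes also gave -0.01, and -0.15 in the HDAC9 knockout. As a list it was thus lower in the HDAC9 knockout only. Cyp7a1, which carries out the limiting step from cholesterol to bile acids, read 8.66, 9.95 and 9.63 on the HDAC6 knockout arrays, 9.65, 8.84 and 8.74 on the HDAC9 knockout arrays and 10.48, 10.70 and 10.01 in the chow livers. The highest knockout array lay just under the lowest chow array. Its log2 difference of -1.15 (SE 0.262) did not pass (adjusted p = 0.214), and a second Cyp7a1 probe set gave -0.80 with overlapping arrays. Cyp39a1 read 7.12, 6.29 and 7.01 on the HDAC6 knockout arrays, 6.97, 7.33 and 7.36 on the HDAC9 knockout arrays and 7.59, 7.98 and 7.86 in the chow livers (-0.80, SE 0.161, adjusted p = 0.146). Its lowest value came from HDAC6 knockout replicate 2. The organic anion transporter Slc22a7 had -0.52 (SE 0.116, adjusted p = 0.214). Without HDAC9 knockout replicate 1 the list's median was -0.15, and without chow replicate 3 it was -0.06.

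Pericentral genes, which are expressed near the central vein of the lobule, had lower means in 21 of 26 (median -0.13). All knockout arrays lay below chow for 4 of them, beside 1.61% of all genes: Cyp7a1, Lgr5 (-0.53), Cyp2c50 (-0.35) and Cyp2c54 (-0.90). In this list 8 genes had an unadjusted p under 0.05 (limma) on the lower side, where all genes gave 3.84%. The list's median was 0.17, -0.29 and -0.25 on the HDAC9 knockout arrays, 0.01, 0.14 and -0.09 on the HDAC6 knockout arrays and 0.09, 0.06 and 0.13 on chow. HDAC9 knockout replicates 2 and 3 were therefore the low arrays and HDAC9 knockout replicate 1 the highest, without which the pooled median was -0.23. Without HDAC9 knockout replicate 2 it was -0.089. Periportal genes, at the other end of the lobule, were higher in 13 of 20 with a median of 0.02. All knockout arrays lay above chow for 2 of them, beside 1.31% of all genes. G6pc, the glucose-releasing phosphatase of gluconeogenesis, separated the groups completely, with 11.25 to 11.77 on the knockout arrays and 10.69, 10.71 and 10.94 on chow (0.72, SE 0.147, adjusted p = 0.146). The histidine-degrading enzyme Hal had 0.47 (SE 0.105, adjusted p = 0.214).

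Drug-metabolism genes were divided. CAR and PXR targets had higher means in 14 of 28 and lower in 14, with a median of -0.01. All knockout arrays lay below chow for 4 and above for 0, beside 1.61% and 1.31% of all genes. Alas1, which starts heme synthesis, had -0.68 (SE 0.160, adjusted p = 0.224). Other drug-metabolising genes had lower means in 20 of 29 (median -0.06), with -0.03 in the HDAC6 knockout and -0.16 in the HDAC9 knockout. All knockout arrays lay below chow for 2 of the 29, beside 1.61% of all genes. They did so for the methyltransferase Tpmt, at -0.39 (SE 0.0894, adjusted p = 0.214). A second Tpmt probe set gave -0.05 with overlapping arrays. Fmo1, a flavin monooxygenase, had -1.28 pooled, but the HDAC6 knockout gave -0.06 and the HDAC9 knockout -2.50.

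Fatty acid uptake was led by Cd36, a fatty acid transporter, which was higher on all 6 knockout arrays by each of its 3 probe sets. The chosen probe set read 8.83, 9.02 and 9.34 on the HDAC6 knockout arrays, 9.27, 9.46 and 9.41 on the HDAC9 knockout arrays and 7.91, 8.78 and 8.42 in the chow livers. The gap to chow replicate 2 was small. The log2 difference was 0.85 (SE 0.156, adjusted p = 0.0824), the other probe sets gave 1.04 and 0.92, and the mean of the 3 probe sets passed (adjusted p = 0.0468). High-fat wild-type livers read 8.03, 7.92 and 7.77, the lowest group mean of the series (7.91), and against them the knockouts were higher by 1.31 (adjusted p = 0.00130). Lpl, a lipase that frees fatty acids from lipoproteins, had 0.72 (SE 0.181, adjusted p = 0.289), with 0.22 in the HDAC6 knockout and 1.23 in the HDAC9 knockout. The list of lipid droplet and uptake genes as a whole had a median of -0.01, with 12 of 26 higher. In it 2 genes had all knockout arrays above chow, beside 1.31% of all genes.

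Among enzymes of fatty acid breakdown, Acad9, an acyl-CoA dehydrogenase that also assembles respiratory complex I, was higher on every knockout array. It read 9.29, 9.43 and 9.32 on the HDAC6 knockout arrays, 9.36, 9.16 and 9.49 on the HDAC9 knockout arrays and 9.02, 8.80 and 8.80 in the chow livers (0.47, SE 0.0932, adjusted p = 0.141). The groups did not overlap, both deletions gave nearly the same value (0.47 and 0.46), and a second probe set gave 0.42. Eci3, an enoyl-CoA isomerase, was 1 of 3 genes (0.0242%) at least 2-fold higher with no overlap, with a log2 difference of 1.11 (SE 0.292, adjusted p = 0.338) and 0.69 without chow replicate 1. The others were Slc41a2 (1.64, SE 0.372, adjusted p = 0.214) and Orm2, and the 2 genes at least 2-fold lower (0.0161%) were Hsd3b5 and Cyp7a1. Slc41a2 read 8.21, 7.44 and 7.19 on the HDAC6 knockout arrays, 7.48, 9.98 and 9.03 on the HDAC9 knockout arrays and 6.57, 6.70 and 6.48 in the chow livers. HDAC9 knockout replicates 2 and 3 were the highest arrays, well above the other knockout arrays, and without HDAC9 knockout replicate 2 the difference was 1.35.

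Over the whole lists, fatty acid oxidation and PPAR-alpha targets had higher means in 26 of 35 (median 0.07) and fatty acid synthesis genes in 21 of 26 (median 0.14). Acad9 and Eci3 are not members of the oxidation list. In that list 0 genes had all knockout arrays above chow, beside 1.31% of all genes. The first median was 0.011 without HDAC9 knockout replicate 1 and 0.16 without chow replicate 3. In the synthesis list 2 genes had all knockout arrays above chow, beside 1.31% of all genes: the desaturase Fads1 (0.13) and the acyltransferase Mogat1 (0.35). The elongase Elovl5 had 0.24 (SE 0.0750, adjusted p = 0.529). The synthesis list's median was 0.21 on chow replicate 2, within the range of the knockout arrays (-0.32 to 0.35), and without that array the pooled median was 0.29. Cholesterol synthesis and uptake genes were higher in 14 of 21 (median 0.05, and -0.024 without chow replicate 3).

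Most markers of resident macrophages had higher means with both deletions. Of 25 genes of Kupffer cells and macrophages, 23 had higher means and 2 lower, with a median of 0.26 pooled, 0.25 in the HDAC6 knockout and 0.28 in the HDAC9 knockout. All 6 knockout arrays lay above chow for 4, beside 1.31% of all genes: the lysosomal Cd68 (0.32), the endotoxin co-receptor Cd14 (0.31), the membrane protein Ms4a7 (0.54) and the oxidase subunit Cybb (0.48). None was called (limma), and 11 had an unadjusted p under 0.05 on the higher side, where all genes gave 2.90%. The scavenger receptor Marco read 6.88, 7.67 and 6.82 on the HDAC6 knockout arrays, 6.95, 6.59 and 6.54 on the HDAC9 knockout arrays and 5.89, 6.57 and 6.01 in the chow livers (0.75, SE 0.195, adjusted p = 0.338). Chow replicate 2 was as high as the lowest knockout arrays. The list behaved alike, with medians of -0.22, 0.03 and -0.38 on the chow arrays and -0.11 to 0.15 on the knockout arrays. Without chow replicate 3 the pooled median was 0.14. On the high-fat wild-type arrays the list's median was 0.27, 0.12 and -0.03. The list therefore did not set the knockouts apart from both wild-type groups. In whole-liver RNA, more cells of a type and more RNA per cell cannot be told apart.

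Il1b, the gene of the cytokine interleukin-1β, read 6.20, 6.18 and 5.89 on the HDAC6 knockout arrays, 6.47, 6.42 and 6.38 on the HDAC9 knockout arrays and 5.49, 5.78 and 5.47 in the chow livers. Every knockout array lay above chow, and high-fat arrays (6.26, 5.97 and 5.98) overlapped the HDAC6 knockout arrays. The log2 difference of 0.68 (SE 0.110) just missed the threshold (adjusted p = 0.0536). Antigen presentation genes of MHC class II had higher means in 12 of 13 (median 0.20). Without chow replicate 2 that median was 0.41 and without chow replicate 1 it was 0.13. Their regulator Ciita had all knockout arrays above chow (0.40, SE 0.107, adjusted p = 0.346), while a second Ciita probe set gave 0.26 with overlapping arrays. Of the 13 antigen presentation genes, 1 had all knockout arrays above chow, beside 1.31% of all genes. Neutrophil genes had higher means in 15 of 17 (median 0.08), with the granule gene Prtn3 at 8.71 on HDAC9 knockout replicate 2 and at most 4.92 elsewhere. That is the array with exocrine pancreas transcripts. Relative to the 12-array means, the neutrophil list's median on it was 0.15, beside 0.14 on HDAC6 knockout replicate 3, so the list did not follow Prtn3. Lymphocyte genes were higher in 8 of 17 (median -0.06, and 0.11 without chow replicate 2). Interferon and immunoproteasome genes were higher in 15 of 25 (median 0.06), with the subunit Psmb9 above chow on all knockout arrays (0.48, SE 0.111, adjusted p = 0.214). In that list 1 gene of 25 lay so, beside 1.31% of all genes.

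Other cell types were checked by their markers. Hepatocyte markers had a median difference of 0.01, endothelial markers -0.04, stellate cell markers -0.02, cholangiocyte markers 0.07 and adipocyte markers 0.09. Some of these rested on single arrays. The adipocyte median was -0.11 in the HDAC6 knockout, 0.23 in the HDAC9 knockout and 0.0098 without HDAC9 knockout replicate 2. The cholangiocyte median was -0.049 without chow replicate 2, and the stellate cell median 0.097 without chow replicate 3. Exocrine pancreas genes had higher means in 11 of 11 (median 0.66), but the HDAC6 knockout gave -0.06 and the HDAC9 knockout 1.70, and without HDAC9 knockout replicate 2 the pooled median was 0.13. The part of these transcripts in the other differences was not tested, and Rab38, Rgs1 and Mpp4 had differences of 0.66, 0.72 and -0.69 without that array (adjusted p = 0.0595, 0.0715 and 0.0595).

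Acute phase proteins were higher in 22 of 32 by their means (median 0.05), with -0.01 in the HDAC6 knockout and 0.13 in the HDAC9 knockout. All knockout arrays lay above chow for 2 of the 32, beside 1.31% of all genes. Without HDAC9 knockout replicate 2 the pooled median was 0.015, and without chow replicate 2 it was 0.018. Orm2, an orosomucoid made by hepatocytes, read 8.17, 7.51 and 7.65 on the HDAC6 knockout arrays, 8.37, 9.49 and 8.30 on the HDAC9 knockout arrays and 7.11, 7.11 and 7.28 in the chow livers. All knockout arrays lay above chow, and HDAC9 knockout replicate 2 was the highest. The difference was 2.12-fold (log2 difference 1.08, SE 0.218, adjusted p = 0.146), 0.89 without HDAC9 knockout replicate 2, and 1.70 against high-fat livers (adjusted p = 0.00233). Serum amyloid genes Saa1 (1.23, SE 0.371) and Saa2 (1.17, SE 0.401) and lipocalin Lcn2 (1.18, SE 0.418) had overlapping arrays and did not pass (adjusted p from 0.505 to 0.590). Complement and coagulation genes were lower in 21 of 32 (median -0.02), and of the membrane attack components C8b had -0.91 (SE 0.242) and C8a -0.98 (SE 0.319).

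Cell cycle genes had lower means in 43 of 47 members and higher means in 4, with a median of -0.22 pooled, -0.22 in the HDAC6 knockout and -0.24 in the HDAC9 knockout. Again none was called (limma), while 22 had an unadjusted p under 0.05 on the lower side, where all genes gave 3.84%. All knockout arrays lay below chow for 4, beside 1.61% of all genes: Ccnb2 (-0.55, and -0.18 without chow replicate 2), Kif20a (-0.19), Rrm1 (-0.28) and Rrm2 (-0.63). The ribonucleotide reductase subunit Rrm2 read 6.09, 5.96 and 5.68 on the HDAC6 knockout arrays, 5.79, 6.02 and 5.86 on the HDAC9 knockout arrays and 6.52, 6.76 and 6.29 in the chow livers. The kinetochore gene Spc25 had -0.94 (SE 0.222, adjusted p = 0.224) and cyclin Ccna2 -0.65 (SE 0.156, adjusted p = 0.234). The median level of the list was 4.61, close to background. The list's median was 0.10, 0.27 and -0.02 on the chow arrays and -0.21 to 0.00 on the knockout arrays, so chow replicate 3 lay within the knockout range, and without chow replicate 2 the pooled median was -0.13. Without HDAC9 knockout replicate 2, 11 of the 47 genes had all remaining knockout arrays below chow, beside 300 of all 12393 genes.

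Stmn1, whose product destabilises microtubules, also had lower values, 7.38, 6.95 and 6.81 on the HDAC6 knockout arrays and 6.78, 7.24 and 6.55 on the HDAC9 knockout arrays against 7.94, 8.17 and 7.50 on the chow arrays. Every knockout array lay below chow, with a log2 difference of -0.92 (SE 0.198, adjusted p = 0.193), and a second probe set gave -0.45. Gpx7, a peroxidase of the endoplasmic reticulum, read 5.01, 5.09 and 4.67, then 4.66, 4.49 and 4.32, against 5.30, 5.44 and 5.25 (-0.63, SE 0.113, adjusted p = 0.0824). Its groups did not overlap either.

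**Figure D3:**
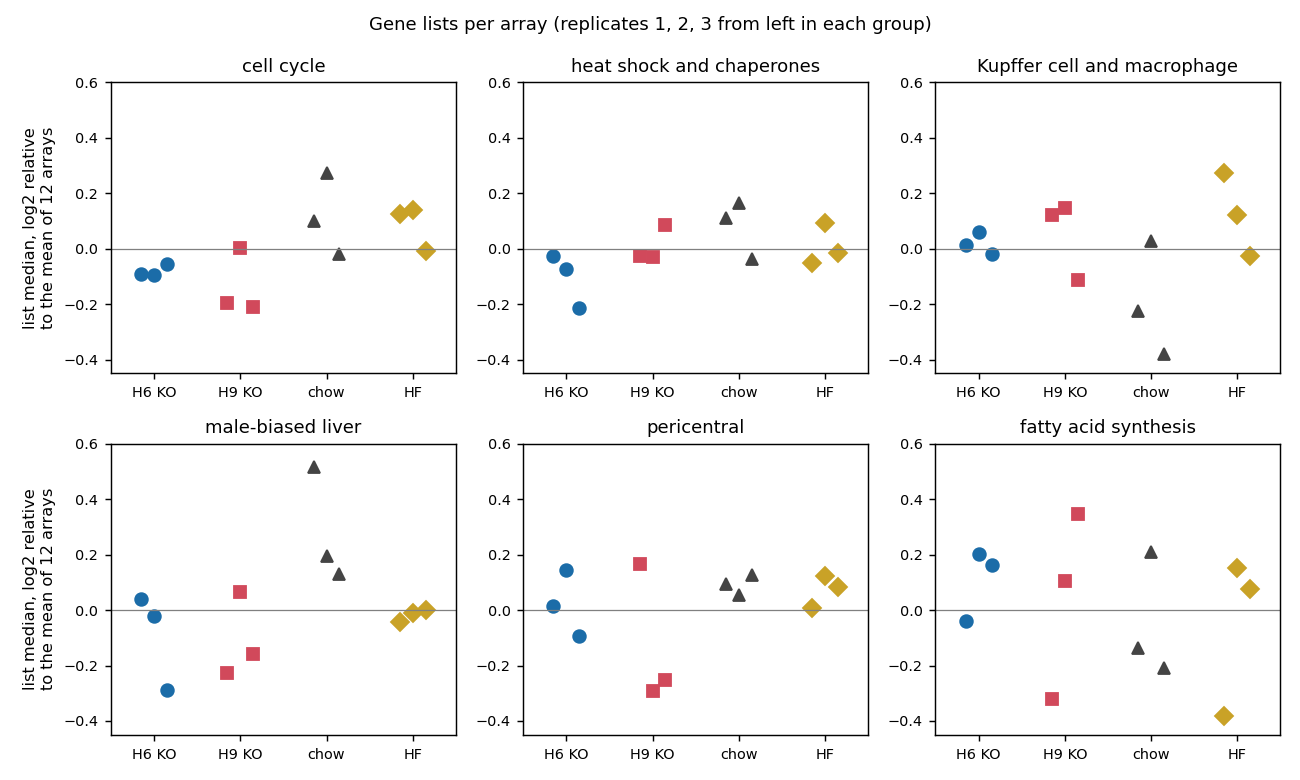
Median over the genes of 6 lists on each array (y axis, log2 relative to the 12-array mean of each gene), by group (x axis) with replicates 1, 2 and 3 from left. The male-biased list is highest on all 3 chow arrays, and in the cell cycle and Kupffer cell lists 1 chow array lies within the range of the knockout arrays.

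Protein folding genes were lower in most members by small amounts. Heat shock and chaperone genes had lower means in 28 of 32 (median -0.13), with -0.19 in the HDAC6 knockout and -0.08 in the HDAC9 knockout. Hsph1, a nucleotide exchange factor for Hsp70, had -0.58 (SE 0.165, adjusted p = 0.428). All knockout arrays lay below chow for 1 gene, the co-chaperone Dnaja1 (-0.31), beside 1.61% of all genes. A second Dnaja1 probe set gave -0.12 with overlapping arrays. Genes of folding in the endoplasmic reticulum were lower in 20 of 27 (median -0.10, and -0.01 without chow replicate 1). Proteasome subunits (17 of 31 lower, median -0.02) and oxidative phosphorylation subunits (40 of 55 lower, median -0.04) stayed near the median of all genes.

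Glucose and stress genes followed no common direction as lists. Genes of gluconeogenesis, glycolysis and insulin signalling were higher in 14 of 25 (median 0.02), with 1 gene above chow on all knockout arrays, beside 1.31% of all genes. G6pc and Igfbp1, both known FOXO1 targets, had 0.72 and 0.89, Igfbp1 with overlapping arrays. Neither passed, and a link to FOXO1 was not tested. Immediate-early genes were higher in 19 of 28 (median 0.10), and 2 of the 28 had all knockout arrays above chow, beside 1.31% of all genes. Klf10, a TGF-β-inducible repressor, and Nr4a1, an orphan nuclear receptor, lay so (0.75, SE 0.168, adjusted p = 0.214, and 0.42, SE 0.116, adjusted p = 0.391). Clock genes were lower in 15 of 23 (median -0.09, and 0.00086 without HDAC6 knockout replicate 1), with the vasopressin receptor Avpr1a below chow on every knockout array (-0.64, SE 0.174, adjusted p = 0.376). A second Avpr1a probe set gave -0.60 with overlapping arrays. Of the 23 clock genes, 1 had all knockout arrays below chow, beside 1.61% of all genes. Amino acid catabolism genes were higher in 29 of 40 (median 0.05).

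Genes tied to the enzymes themselves stayed near the median of all genes. Tubulins and other HDAC6 substrates had lower means in 14 of 20 (median -0.04), none with separated arrays. The gamma-tubulin Tubg1 had -0.33 (SE 0.127) and the autophagy receptor Sqstm1, whose product binds ubiquitinated cargo, 0.30 (SE 0.126, and 0.078 as a difference without chow replicate 2). Histone deacetylases, sirtuins and MEF2 factors were split 8 to 8 (median -0.01), with Hdac6 the single member called. Hdac7 had 0.13 (SE 0.0877) and Mef2d 0.20, neither of which passed. Their other probe sets gave -0.07 and -0.13.

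**Figure D4:**
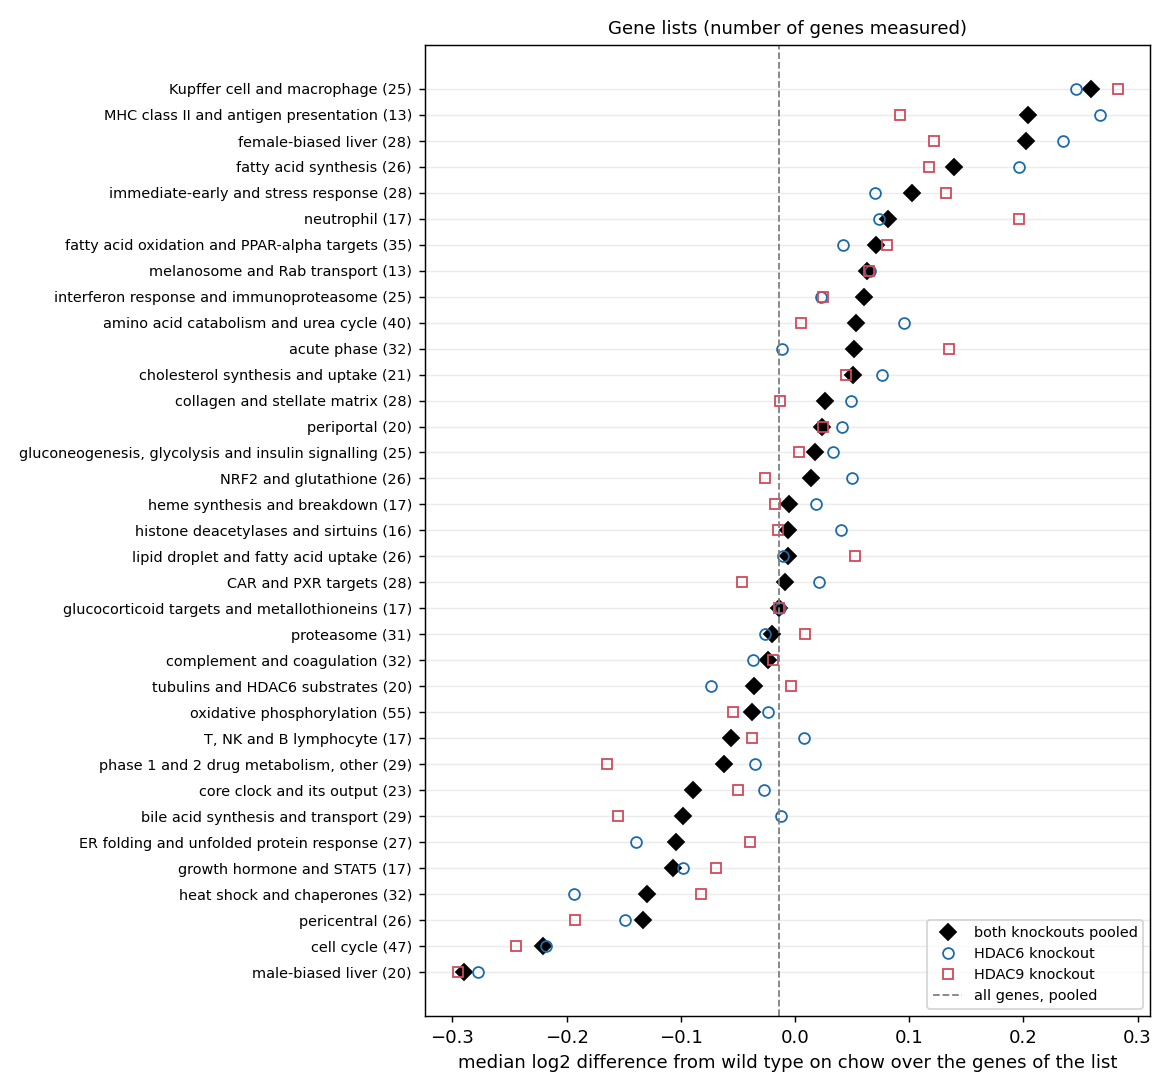
Median log2 difference from chow (x axis) over the measured genes of 35 lists (y axis, number of genes in brackets), for both knockouts pooled (diamonds), the HDAC6 knockout (circles) and the HDAC9 knockout (squares); the dashed line is the median of all genes. The marker lists used as checks of other cell types, such as exocrine pancreas, are not drawn. Among those drawn, Kupffer cell and macrophage genes have the highest pooled median (0.26) and male-biased and cell cycle genes the lowest (-0.29 and -0.22).

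Small medians depended on single arrays. Of the 35 lists drawn, 12 changed the sign of their pooled median when 1 of the 9 arrays was left out, and 23 kept it. None of the 12 had a pooled median of more than 0.089 in size.

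The HDAC9 and HDAC6 knockout livers were also set against each other, which does not involve the chow arrays. Hdac6 was the single gene called (1 gene, 0.00807%, higher in the HDAC9 knockout by 1.70, SE 0.133, adjusted p = 3.97e-05), and 471 genes (3.80%) had an unadjusted p under 0.05. No other gene named here by rule passed. Their intervals were wide: the HDAC9 minus HDAC6 difference of Orm2 was 0.95 (95% interval 0.41 to 1.48), that of Slco1a1 -1.63 (-2.90 to -0.37) and that of Hsd3b5 -1.10 (-2.42 to 0.23). As for Orm2 and Slco1a1, the intervals of Rab38, Rgs1, Il1b, Dct, Ugt2b1, Gpx7, Cyp39a1 and Hsd3b2 did not hold 0. These intervals are not adjusted for the number of genes. Estimates lay close to 0 for Acad9 (-0.24 to 0.22), Mpp4 (-0.22 to 0.28), Rasgrp2 (-0.29 to 0.26) and Arrdc4 (-0.30 to 0.28). The intervals of Sorl1, Cd36, Hsd3b3 and Stmn1 also held 0. Against chow, the HDAC6 knockout alone had 2 genes called (0.0161%) and the HDAC9 knockout alone 12 (0.0968%), 5 of them higher (0.0403%) and 7 lower (0.0565%), with 754 (6.08%) at an unadjusted p under 0.05. These comparisons use the same chow arrays as the pooled one.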

How the data were processed

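Expression was measured on 12 Affymetrix Mouse430A arrays of whole liver, 3 per group. The deposited values are log2 expression of each probe set, and the submitters' processing notes name RMA. For its software and chip definition, sources used here give no name, and the values were used without further normalization. Of 22626 probe sets, a platform annotation table gave 20380 exactly 1 symbol, and each of 12393 genes was represented by its probe set of highest mean over all arrays. Symbols of 12369 genes were checked through RefSeq.

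A model with 4 group means was fitted to the 12 arrays in R 4.3.3 with limma 3.58.1 (moderated statistics with a mean-variance trend, 14.3 degrees of freedom). The pooled comparison was the mean of both knockout group means minus the chow mean. Adjusted p-values are from limma with Benjamini-Hochberg over all genes, two-sided, with 0.05 as the threshold. With 3 arrays per group, the number of arrays limits the precision. The script was tested on simulated data.

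Named by rule were Hdac6, Hdac9, the called genes, genes of smallest p up to 10 in each direction, and the 4 members of smallest p of each list described. Other genes were named after their values were seen. The comparison, the members and the lists were chosen with earlier results of these data known, so the lists are described by counts and medians and not tested. Alternatives covered the variance prior, the arrays fitted, normalization, expression filters, probe set choice, thresholds, a replicate block, single arrays left out and the reference group. The labels do not say whether equal replicate numbers mark pairs of samples. Between arrays of equal number, deviations from group means correlated at -0.152 to 0.148, and unequal numbers were not compared. Plots used matplotlib 3.10.9 and pandas 2.3.3 under Python 3.11.15.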

Additional observations from a re-analysis of the deposited data

Results flagged for a closer look

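The following values stood apart. Hdac6 differed between the deletions by 1.70 on the log2 scale, higher in the HDAC9 knockout, past the threshold of the direct test. Cyp39a1 read 6.29 on HDAC6 knockout replicate 2, far below the other 5 knockout arrays. Exocrine pancreas genes had a median of 3.75 above their 12-array means on HDAC9 knockout replicate 2. In all, 68 values were examined over the 6 knockout arrays for a single array apart (Dixon's test), and chance marks about 1 in 20 such groups.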

How the results depend on the processing

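The pooled comparison called 4 genes. It called 7 without a mean-variance trend, 8 with a robust prior, 10 with a replicate block, 26 with both wild-type groups as the reference and 62 with high-fat livers as the reference, the last 2 settings chosen after seeing the data. It called 0 with the 9 knockout and chow arrays alone, 0 with the 6 knockout arrays as 1 group, 0 after quantile normalization, 0 after median centring, 0 among genes above the 50th percentile of expression, 0 at an adjusted p under 0.01, 0 with every probe set on its own and 0 among the 2246 probe sets with several symbols or none (limma, 783, 811, 911, 876, 448, 835, 1362 and 136 at an unadjusted p under 0.05). Without single arrays it called 0 to 8. HDAC9 minus HDAC6 called 1 gene, 2 with the mean of a gene's probe sets, 2 with the replicate block, and 1 to 4 without single arrays. The HDAC6 knockout alone called 2 genes, 1 with 9 arrays, 1 after quantile normalization, 1 after median centring, 1 above the 50th percentile, 1 at 0.01 and 1 to 4 without single arrays. The HDAC9 knockout alone called 12, 3 without the trend, 6 with the robust prior, 1 with 9 arrays, 5 after quantile normalization, 5 above the 25th percentile, 0 above the 50th percentile, 7 with the mean of probe sets, 0 at 0.01 and 0 to 13 without single arrays; the unadjusted count of that comparison was 754 in the main setting. Whether equal replicate numbers pair the samples is not known, and the replicate block is given for completeness. Among 35 gene lists, 12 medians changed sign without 1 array, each of at most 0.089 in size. Of the genes in these tests, directions reversed for Hdac9 (0.014 without HDAC6 knockout replicate 1) and Hdac5 (-0.010 without chow replicate 2), both near 0, with ranges without single arrays of -0.107 to 0.014 and -0.010 to 0.294. The cause of these changes was not tested. The median pooled difference over all genes was -0.0098 after quantile normalization and -0.032 after median centring, beside -0.014 in the main setting.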

Other observations

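Further genes in both deletions were named after their values were seen. Robo1, a receptor for Slit guidance cues, had a log2 difference from chow of 0.96 (adjusted p = 0.279) and from high-fat livers of 1.16 (adjusted p = 0.0443). Its 6 knockout arrays lay above all 6 wild-type arrays. Adamdec1, a macrophage metalloprotease, had 0.73 from chow and 0.84 from high-fat livers (adjusted p = 0.0226). Dhrs7, a short-chain dehydrogenase, had 0.48 and 0.49 (adjusted p = 0.0443 against high-fat livers). Hao1, the glycolate oxidase, had -0.49 (adjusted p = 0.211 against chow) and -0.47 (adjusted p = 0.0686 against high-fat livers), and its knockout arrays lay below all wild-type arrays. None of Robo1, Adamdec1, Dhrs7 and Hao1 was called against chow, and the high-fat reference was chosen after seeing the data. Collagen and stellate matrix genes had higher means in 17 of 28 (median 0.03), NRF2 and glutathione genes in 15 of 26 (median 0.01), heme genes in 8 of 17 (median -0.01) and glucocorticoid targets with metallothioneins in 8 of 17 (median -0.01), so these lists stayed near the median of all genes.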
